A study of Mus musculus with 144 samples.

Results

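The comparison described here sets the genotype labels of primary mouse hepatocytes against each other in the first hours of exposure to TCDD. It takes the libraries labelled as carrying the Pkm DRE deletion (PkmΔDRE) and those labelled wild-type (WT) that were treated with TCDD and harvested at 2, 4 or 12 h, 4 libraries per label and hour. These are 24 libraries, 12 for each label, from 6 of the 36 groups of 4 libraries that make up the series, chosen by label, treatment and hour and by no measured value. The study followed gene expression by RNA-Seq after TCDD or DMSO vehicle at 9 time points in cells of both genotypes, to ask what the DRE contributes to the response. All 24 libraries came from liver hepatocytes of male mice labelled with an age of 28 day, of the strains C57BL/6NCrl for WT and Pkm-delta-DRE for PkmΔDRE, which were cultured on collagen with dexamethasone and given 10 nM TCDD. The PkmΔDRE line is a germline line in which an intronic DRE of Pkm had been removed with CRISPR-Cas9, so every cell type of the animal carries the deletion. The 24 vehicle libraries of the same labels and hours served as the background without TCDD, and the 8 TCDD libraries of 8 h as a further set. The labels do not say which libraries came from separate animals, so the p-values measure the spread between these libraries.

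TCDD (2,3,7,8-tetrachlorodibenzo-p-dioxin) binds the aryl hydrocarbon receptor (AHR), which enters the nucleus and activates genes such as Cyp1a1 through dioxin response elements (DREs). Pkm encodes pyruvate kinase, the enzyme of the last step of glycolysis, and the liver form of that enzyme comes from another gene, Pklr. Hepatocytes put into culture lose part of their liver-specific expression within hours and react to the isolation itself, and genes with a daily rhythm differ with the hour at which an animal was killed. In whole-culture RNA, fewer cells of a type and less RNA per cell cannot be told apart.

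Levels are given in CPM, the counts a gene would have in a library of 1000000 counts. The 24 libraries held 15121923 to 25965475 counts on genes, with a median of 17474351.5, and 22.98% to 32.6% of the read pairs were on no single gene. Among the markers of hepatocytes, the summed level of Alb, Apoa1, Ttr, Cps1 and Hnf4a was 78488 ± 29789 CPM (SD, n = 12) under the WT label and 94576 ± 34798 CPM (n = 12) under the PkmΔDRE label. The markers of macrophages summed to 130.58 ± 41.1 and 143.86 ± 72.7 CPM, those of endothelial cells to 190 ± 86.1 and 184 ± 77.6 CPM, and those of cholangiocytes to 66.9 ± 25.7 and 41.8 ± 29.5 CPM. Of the markers of hepatocytes, macrophages, endothelial, stellate and cholangiocyte cells and leukocytes, 0 were called over the 3 hours in edgeR, while DESeq2 called 1 hepatocyte, 1 stellate and 1 cholangiocyte marker. An unadjusted p under 0.05 was found for 2 of 5, 1 of 3 and 2 of 4 of these, and for 0 of the macrophage, endothelial and leukocyte markers. Over all genes tested that share was 18.7%. The cholangiocyte list held 1 call without libraries 40 and 44, which are introduced next, and 1 with the trend on GC content removed. Those fits called 665 and 176 genes in all. No pair of the libraries was alike down to counting noise.

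The target of TCDD set a few libraries apart. Cyp1a1, the leading AHR target, stood under the WT label at 17.3, 22.3, 4.91 and 1.02 CPM at 2 h, in the order of the library numbers, which is the order used for all values here. It stood at 101.002, 101.8, 258.8 and 8.55 CPM at 4 h and at 3627, 3159, 2033 and 4909 CPM at 12 h. The fourth library was thus the lowest of its group at 2 and 4 h and the highest at 12 h, and those low ones (libraries 40 and 44) are referred to below. Vehicle libraries of the WT label held 0.694 to 4.54 CPM of Cyp1a1 at 2 h, a range that includes library 40. At 4 h they held 0.606 to 3.81 CPM, below library 44. Tiparp, another AHR target, stood under the WT label at 77.9, 140.8, 125.6 and 5.97 CPM at 2 h. At 4 h it stood at 113.1, 99.5, 145.4 and 6.21 CPM. Vehicle libraries of the WT label held 13.03 to 63.1 CPM of Tiparp at 2 h, above library 40. At 4 h they held 4.16 to 35.6 CPM of it, a range that includes library 44. Under the PkmΔDRE label Cyp1a1 stood at 17.8, 15.4, 13.1 and 8.42 CPM at 2 h, at 287.1, 607.8, 652.6 and 194.4 CPM at 4 h, and at 4190, 3694, 4109 and 3579 CPM at 12 h. Its log2 fold change of PkmΔDRE over WT label was 0.77 (SE 0.43, edgeR adjusted p = 0.326), so a difference in Cyp1a1 between the labels was not called. Among the vehicle libraries, library 80, labelled PkmΔDRE at 4 h, also stood apart, with 53.2 CPM of Cyp1a1 against 1.00 to 3.52 CPM in the other 3 of its group and a summed level of the hepatocyte markers of 8988.9 CPM, the lowest of the 24 vehicle libraries. Vehicle values are therefore given with and without it where they are compared.

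Pkm, on chromosome 9, the gene whose DRE the line lacks, was higher under the label of the deletion. Under the WT label the 4 libraries of 2 h held 63.9, 54.6, 61.6 and 59.7 CPM of Pkm, those of 4 h 47.9, 52.7, 50.1 and 47.98 CPM, and those of 12 h 24.1, 76.97, 26.2 and 26.98 CPM. Those of the PkmΔDRE label held 226.4, 77.2, 36.5 and 50.8 CPM at 2 h, 261.7, 118.7, 71.996 and 105.8 CPM at 4 h, and 162.6, 76.7, 162.9 and 103.5 CPM at 12 h. The labels overlapped at 2 h and, by the second WT-labelled library, at 12 h, and stood apart at 4 h. Over the 3 hours Pkm had a log2 fold change of 1.32 (SE 0.28, 2.49-fold, adjusted p = 0.0224), and it was 0.70 at 2 h, 1.58 at 4 h and 1.70 at 12 h. Pkm was also higher under the PkmΔDRE label at 8 h of TCDD, at 139.5, 93.02, 92.1 and 101.7 CPM against 32.5, 42.1, 52.2 and 23.5 CPM. Under vehicle the log2 fold change was 0.59 and did not pass the test (adjusted p = 0.408), nor did 0.34 without library 80. The labels overlapped at 2, 4 and 12 h of vehicle. At 12 h of vehicle Pkm stood at 21.5, 44.5, 26.9 and 42.8 CPM under the WT label and 42.9, 30.9, 42.5 and 38.7 CPM under the PkmΔDRE label. The label difference under TCDD less that under vehicle was 0.73 over the 3 hours (SE 0.42) and was not called (edgeR adjusted p = 0.762).

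**Figure D1:**
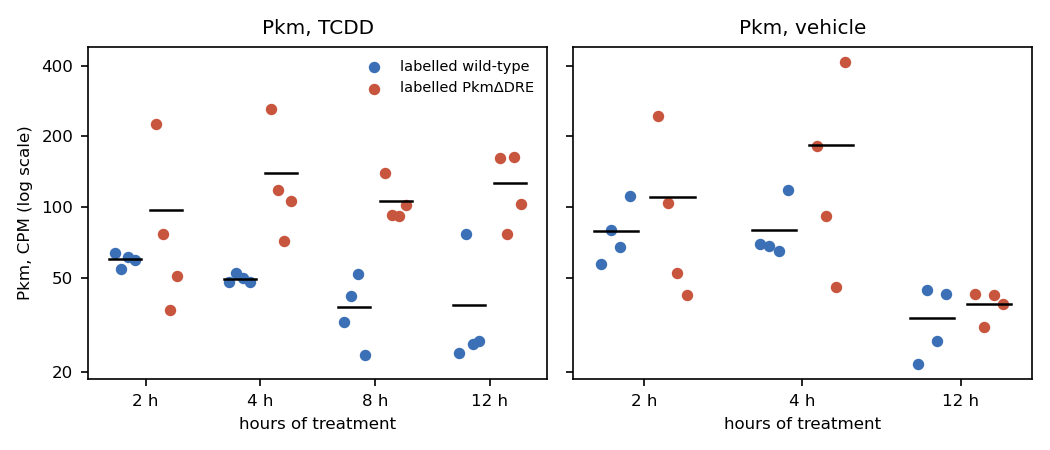
Pkm in each library, in CPM on a log scale, at the hours of TCDD (left) and of vehicle (right), with libraries labelled wild-type in blue, those labelled PkmΔDRE in red and a black bar at the mean of 4. At 4 and 8 h of TCDD all 4 red points lie above all 4 blue points, while the colours overlap at 2 and 12 h.

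The direction of Pkm goes against what a loss of a TCDD-responsive element would give if it acted on the total Pkm count, and the counts do not separate its 2 isoforms or show the deleted stretch. Whether the labels were exchanged was not tested, and the directions below are those of the labels as deposited. Of the 77 other genes tested within 5 Mb of Pkm on chromosome 9, 0 were called between the labels, against 1.02% of all genes tested. A count of 0 among 77 is near that share and does not set these genes apart. Their median log2 fold change was 0.081. The call for Pkm rested partly on the first PkmΔDRE-labelled library of 2 h: without it the log2 fold change was 1.15 and the adjusted p = 0.0616.

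Over the 3 hours, 66 genes were called higher and 71 lower under the PkmΔDRE label, which is 1.02% of the 13380 tested. A call required a change of 1.5-fold or more and a p-value under 0.05 after adjustment, by the quasi-likelihood test of edgeR. The median log2 fold change of all genes tested was 0.01. The count moved strongly with the libraries that entered: 665 genes were called without libraries 40 and 44, including all but 8 of those just counted, and 40 to 497 when a single library was left out. When the order of the library numbers was taken as a block, 14 genes were called, each among those called without it, and 1 gene with the counts of the 3 hours summed.

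In 4 of the 13380 genes (0.0299%) the labels did not overlap at any of the 3 hours and kept their direction, and all 4 were called. They are Igha and Zxdc, higher under the PkmΔDRE label, and Acnat2 and Noct, lower. Between the labels at single hours, 188 genes (1.41%) stood apart at 2 h, 1870 (13.976%) at 4 h and 747 (5.58%) at 12 h. With 4 libraries a label, some genes stand apart at an hour by chance alone, so these are not counts of genes that differ.

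Zxdc, on chromosome 6, encodes a zinc finger protein that takes part in transcription. Under the WT label it stood at 21.8, 18.99, 13.1 and 20.2 CPM at 2 h, 28.9, 23.97, 18.8 and 28.3 CPM at 4 h, and 27.9, 22.5, 12.3 and 18.5 CPM at 12 h. Under the PkmΔDRE label it stood at 36.7, 25.4, 34.5 and 32.4 CPM, 49.8, 52.5, 48.3 and 48.4 CPM, and 55.4, 30.95, 54.5 and 40.3 CPM. The third WT-labelled library was the lowest at each hour. Its log2 fold change was 1.02 (SE 0.14, adjusted p = 0.000360), and it was 0.65 under vehicle, 0.72 there without library 80 (adjusted p = 0.0176), and 0.57 at 8 h of TCDD.

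Igha, on chromosome 12, encodes the constant part of the heavy chain of immunoglobulin A, a product of plasma cells and not of hepatocytes. It was scarce: the WT-labelled libraries held 0.418, 0.701, 0 and 0.444 CPM at 2 h, 0.167, 0, 0.381 and 0 CPM at 4 h, and 0 CPM in each at 12 h. The PkmΔDRE-labelled libraries held 3.51, 1.64, 4.27 and 10.1 CPM at 2 h, 2.30, 2.23, 1.37 and 1.43 CPM at 4 h, and 1.25, 0.258, 0.865 and 0.171 CPM at 12 h. Every PkmΔDRE-labelled library was thus above every WT-labelled library of its hour. At 8 h of TCDD the values were 4.35, 2.93, 1.60 and 0.523 CPM against at most 0.210 CPM. Under vehicle the log2 fold change was 2.89 (adjusted p = 0.269), and at 12 h of vehicle the order of the means was the other way, at 0.193 CPM against 0.357 CPM under the WT label. The log2 fold change was 3.93 (SE 0.55, adjusted p = 0.000591), and Igha was the gene that was also called with the counts of the 3 hours summed (adjusted p = 0.0115). The markers of leukocytes summed to 0.190 to 2.55 CPM under the WT label and 0.389 to 1.80 CPM under the PkmΔDRE label. Among them Ms4a1, of B cells, was at 0 in 11 of 12 and 12 of 12 libraries, and Cd79a, of B cells and plasma cells, reached at most 0.678 and 1.07 CPM. The part of residual immune cells in the Igha counts was not tested.

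Acnat2, on chromosome 4, encodes a peroxisomal enzyme of the acyl-CoA amino acid N-acyltransferase family. The WT-labelled libraries held 15.1, 14.2, 15.4 and 34.5 CPM at 2 h, 10.2, 10.6, 8.57 and 14.2 CPM at 4 h, and 20.03, 19.1, 11.01 and 21.5 CPM at 12 h. The PkmΔDRE-labelled libraries held 6.61, 7.95, 7.55 and 8.82 CPM, 2.30, 7.05, 2.06 and 2.73 CPM, and 2.94, 3.48, 1.33 and 3.04 CPM. The gap between the labels widened from 2 to 12 h in these values, although the test of the hours did not call Acnat2. Its log2 fold change was −1.86 (SE 0.24, adjusted p = 0.000360), with −1.02 at 8 h of TCDD. Under vehicle it was −0.76, where library 80 held 62.97 CPM against 2.00 to 7.28 CPM in the other 3 of its group, and −1.50 without that library (adjusted p = 0.0484).

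Noct, on chromosome 3, encodes nocturnin, a rhythmic enzyme of the liver. It stood at 48.999, 41.6, 98.3 and 43.3 CPM at 2 h, 28.2, 22.9, 47.7 and 30.6 CPM at 4 h, and 73.2, 50.1, 76.9 and 51.1 CPM at 12 h under the WT label. It stood at 39.2, 35.1, 31.9 and 25.3 CPM, 10.3, 19.3, 12.03 and 11.2 CPM, and 12.6, 35.2, 14.5 and 22.1 CPM under the PkmΔDRE label. At 2 h the gap between the lowest WT-labelled and the highest PkmΔDRE-labelled library was small beside the spread within WT. Noct had a log2 fold change of −1.21 (SE 0.19, adjusted p = 0.00146). The value was −0.78 under vehicle, −0.93 there without library 80 (adjusted p = 0.0199), and −0.27 at 8 h of TCDD, where the labels overlapped (adjusted p = 0.572).

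**Figure D2:**
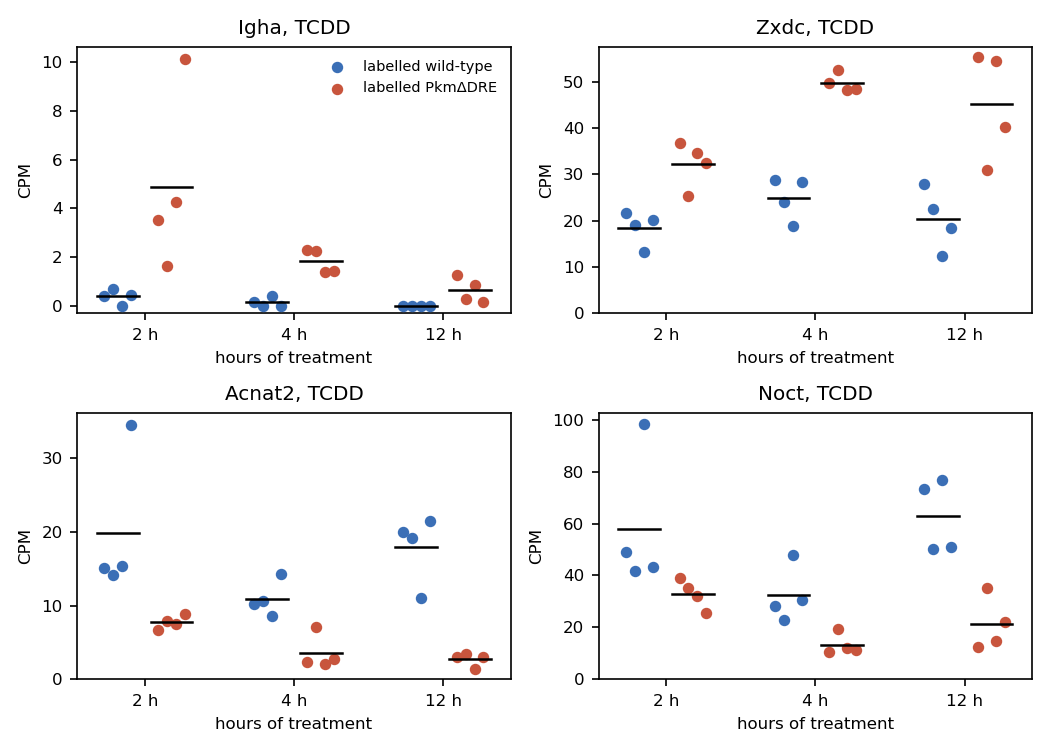
Igha, Zxdc, Acnat2 and Noct in the 24 libraries, in CPM by hour of TCDD, with libraries labelled wild-type in blue, those labelled PkmΔDRE in red and a black bar at the mean of 4. The colours do not overlap within any hour: red lies above blue for Igha and Zxdc and below it for Acnat2 and Noct.

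The major urinary proteins are small pheromone-binding lipocalins that the liver of male mice secretes in large amounts, encoded by a cluster of near-identical genes on chromosome 4. Their family was counted after its members had been seen among the called genes. The files hold 22 Mup genes, of which 18 passed the filter on low counts. Of these 18, 10 were called, each lower under the PkmΔDRE label (55.6%, against 1.02% of all genes tested), and 17 had a negative log2 fold change, with a median of −0.87. Because the copies share much of their sequence, read pairs can be assigned to the wrong copy or dropped as mapping to several places, and the value of a single Mup gene is uncertain.

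The likeness of the copies shows in the bases just before their starts, and it is shown for copies that were called and copies that were not. In the promoter table of RefSeq (build GRCm38.p6), 14 Mup genes have an entry, and 11 of them hold the letters TATATAA on the strand of the gene within the 250 bases before the start, a stretch that 2.06% of the 32850 promoters in the table hold. The capitals mark these letters, and all genes shown lie on the minus strand. Mup18 is at chr4:61674112-61674147, Mup9 at chr4:60421973-60422008, Mup17 at chr4:61595847-61595882, Mup19 at chr4:61782245-61782280 and Mup3 at chr4:62087318-62087353.
Mup18 (called): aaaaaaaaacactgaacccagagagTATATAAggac
Mup9 (called): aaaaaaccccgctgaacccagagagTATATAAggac
Mup17 (called): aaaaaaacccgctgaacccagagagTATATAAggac
Mup19 (not called): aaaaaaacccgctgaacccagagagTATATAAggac
Mup3 (not called): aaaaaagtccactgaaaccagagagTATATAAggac
Mup19, which was not called, shares 36 of 36 bases with Mup17, which was, as do Mup15, called, and Mup2, not called. Mup9 shares 35, Mup18 33 and Mup3 32 of the 36 bases with Mup17. These letters therefore do not separate the copies that were called from those that were not.

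Mup17 showed how the family varied among libraries. Under the WT label it stood at 411.6, 513.3, 79.9 and 340.4 CPM at 2 h, 335, 531.2, 54.7 and 218 CPM at 4 h, and 134.7, 193.7, 17.3 and 84.6 CPM at 12 h. The PkmΔDRE-labelled libraries stood at 179, 56.4, 51.6 and 60.1 CPM, 114.7, 76.8, 128.9 and 86.6 CPM, and 19.6, 20.7, 22.2 and 15.3 CPM. The third WT-labelled library was the lowest of its group at every hour and lay within the range of the PkmΔDRE-labelled libraries at 2 and 12 h and below it at 4 h. Mup17 had a log2 fold change of −1.96 (adjusted p = 0.00819).

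Mup20, the copy known as darcin, stood at 8189, 7028, 3820 and 6038 CPM at 2 h, 7089, 7298, 3129 and 4895 CPM at 4 h, and 3896, 2257, 1268 and 2424 CPM at 12 h under the WT label. It stood at 5319, 2804, 3126 and 2665 CPM, 2550, 3100, 3629 and 2416 CPM, and 1064, 1394, 1044 and 1137 CPM under the PkmΔDRE label. The labels overlapped at each hour through the third library of the WT label, as for Mup17. Its log2 fold change was −0.94 (adjusted p = 0.00967), those of Mup18 and Mup9 were −3.01 each (adjusted p = 0.00418 and 0.00141), and that of Mup16 was −1.95 (adjusted p = 0.000591). Mup3, with means of 11540 and 11410 CPM at 2 h, had a log2 fold change of −0.16 (adjusted p = 0.523) and Mup19 one of 0.14 (adjusted p = 0.881). In 0 of the 18 did the labels stand apart at all 3 hours.

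Summed over the family, the level was 22130 ± 3234 CPM (SD, n = 4) at 2 h, 18850 ± 4095 CPM at 4 h and 8165 ± 2471 CPM at 12 h under the WT label. Under the PkmΔDRE label it was 16930 ± 5113, 12880 ± 2338 and 5761 ± 695 CPM. Under both labels the summed level, which is relative to each library's counts, was lower at 12 h than at 2 h. The median log2 fold change of the 18 genes was −0.95 under vehicle, −0.83 there without library 80, and −0.51 at 8 h of TCDD. Called Mup genes fell from 10 to 6 when the trend of the levels on GC content was taken out of each library and to 2, Mup16 and Mup12, with the order of the library numbers as a block.

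Moxd1, which encodes a copper monooxygenase and was chosen after its values were seen, had the most negative log2 fold change of the called genes. The WT-labelled libraries held 22.5, 87.4, 0 and 17.8 CPM at 2 h, 14.4, 93.7, 0.0381 and 12.9 CPM at 4 h, and 7.59, 20.99, 0 and 4.50 CPM at 12 h. The second library by number was thus the highest at each hour and the third was at or near 0. The PkmΔDRE-labelled libraries held 0.327, 0.169, 0 and 0.543 CPM, 0.890, 0, 4.05 and 8.37 CPM, and 0, 0.258, 0 and 0.0855 CPM. Moxd1 had a log2 fold change of −5.12 (SE 1.09, adjusted p = 0.0235). Under vehicle the WT-labelled libraries held 27.2, 120.2, 0.214 and 0.467 CPM at 2 h, with the second again the highest. The labels do not link libraries of different hours, and with the order of the library numbers as a block Moxd1 was not called (limma adjusted p = 0.591).

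**Figure D3:**
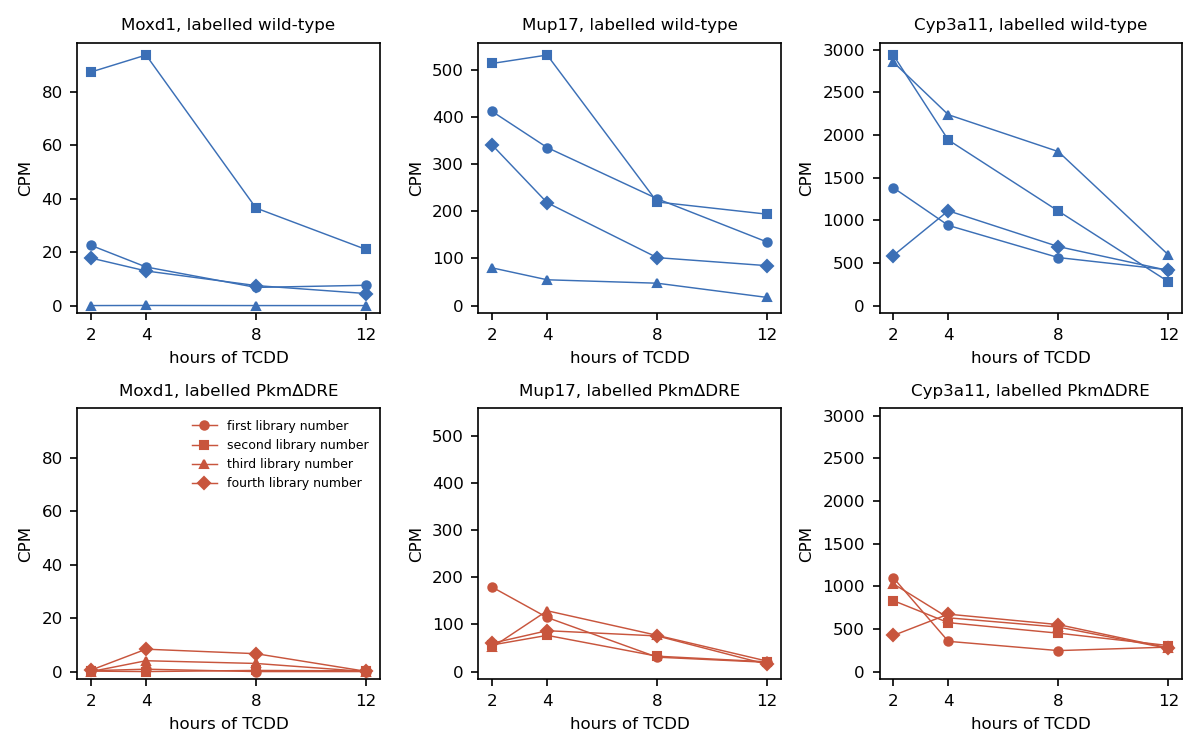
Moxd1, Mup17 and Cyp3a11 in CPM at 2, 4, 8 and 12 h of TCDD in libraries labelled wild-type (top, blue) and PkmΔDRE (bottom, red), with lines that join libraries by the order of their numbers only. In the top row the third library has the least Moxd1 and Mup17 at each hour and the second the most Moxd1.

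Lists of genes of liver function, which were chosen with earlier results of these data known, are described by their counts. With the order of the library numbers as a block in limma, 0 genes of any of these lists were called, so each list call below is lost in that fit. Among 20 genes known to be higher in male than in female mouse liver, 3 were called (against 1.02% of all genes), each lower: Cyp7b1, an oxysterol hydroxylase, at −0.99, Mup20 at −0.94 and C6, a complement component, at −0.89. When each library was left out in turn, Cyp7b1 was called in 6 of 24 fits, C6 in 11 and Mup20 in 24. The median of that list was −0.20. Of the 5 tested genes higher in female liver 0 were called in edgeR or DESeq2. An unadjusted p under 0.05 was found for 1 of these 5, against 18.7% of all genes. Among 23 genes of drug metabolism 2 were called, Cyp7b1 and Cyp3a11, a major drug-oxidizing cytochrome P450.

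Cyp3a11 stood at 1382, 2938, 2856 and 586.8 CPM at 2 h, 940.3, 1942, 2239 and 1112 CPM at 4 h, and 419.4, 281, 596.1 and 411.6 CPM at 12 h under the WT label. Under the PkmΔDRE label it stood at 1101, 832.4, 1030 and 423.4 CPM, 354.6, 573.7, 630.4 and 673.3 CPM, and 286.9, 305.4, 272.7 and 277.4 CPM. The labels stood apart at 4 h only. The log2 fold change was −1.07 (SE 0.24, adjusted p = 0.0279) under TCDD. It was −1.40 under vehicle (adjusted p = 0.211) and −1.26 there without library 80 (adjusted p = 0.00644).

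Of 8 tested AHR target genes, 1 was called (against 1.02% of all genes). This was Nqo1, a quinone reductase that NRF2 also drives, which was higher under the PkmΔDRE label. It stood at 9.48, 10.6, 5.65 and 10.6 CPM at 2 h, 23.8, 18.9, 27.1 and 19.9 CPM at 4 h, and 33.1, 49.8, 26.97 and 44.2 CPM at 12 h under the WT label. It stood at 18.4, 13.6, 13.4 and 9.57 CPM, 28.5, 51.9, 53.7 and 22.4 CPM, and 113.5, 52.2, 113.7 and 70.99 CPM under the PkmΔDRE label. The labels stood apart at 12 h and overlapped at 2 and 4 h. The log2 fold change was 0.89 (SE 0.17, adjusted p = 0.0121). The other AHR targets Cyp1a2 at 0.16, Tiparp at −0.01 and Cyp1b1 at −0.86 did not pass the test, and the median of the list was 0.07.

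In central carbon metabolism few genes were called. Of 21 tested genes of glycolysis 1, Pkm itself, was called (against 1.02% of all genes). The median was 0.15, with Gapdh at 0.23, Ldha at 0.13 and the liver pyruvate kinase Pklr at −0.26. Of 7 genes of the pentose phosphate pathway, which supplies NADPH, 0 were called in edgeR or DESeq2. An unadjusted p under 0.05 was found for 5 of them (against 18.7% of all genes), all with positive values, and the median was 0.44. Among these 5 were Pgd at 0.56 (adjusted p = 0.0712) and Pgls at 0.58 (adjusted p = 0.103). Without libraries 40 and 44, 3 of the 7 were called, in a fit that called 665 genes in all. Of 21 genes of the tricarboxylic acid cycle 0 were called in either tool, and the median was 0.08. Of these 21, 3 had an unadjusted p under 0.05 (against 18.7% of all genes).

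Genes of rhythm and of stress moved in both directions. Of 18 clock genes 2 were called (against 1.02% of all genes): Per2, a repressor of the clock, was lower at −0.86 (adjusted p = 0.0328), and Nr1d1, the REV-ERBα repressor, was higher at 0.80 (adjusted p = 0.0444). Per2 was called in 13 and Nr1d1 in 8 of the 24 fits that left out a library. Of 26 immediate early genes 2 were called, Btg2 lower at −0.93 and Gadd45b higher at 0.93. Of 13 p53 targets 1 was called, Phlda3, at 1.23 (adjusted p = 0.0110).

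Of 14 inflammatory genes 2 were called and lower (against 1.02% of all genes), the chemokine Cxcl1 at −0.92 and the NF-κB inhibitor Tnfaip3 at −1.15, 13 had a negative log2 fold change, and the median was −0.49. Cxcl1 was called in 12 and Tnfaip3 in 15 of the 24 fits that left out a library. Of the 11 tested genes of the mitochondrial genome 0 were called in edgeR and 1 in DESeq2. Yet all 11 had a negative value, with a median of −0.38, and 7 an unadjusted p under 0.05 (against 18.7% of all genes). The acute phase, interferon-stimulated, cholesterol synthesis, lipogenesis, fatty acid oxidation, gluconeogenesis, heat shock, unfolded protein, antioxidant, cytoskeleton and cell cycle lists held 0 called genes in edgeR over the 3 hours, with 0 to 2 called in DESeq2. Each of these lists held 12 to 34 tested genes, of which 2 to 11 had an unadjusted p under 0.05 (against 18.7% of all genes). The share was largest for heat shock (7 of 13, 5 higher and 2 lower) and unfolded protein (11 of 23, 9 higher and 2 lower). Next came cholesterol synthesis (10 of 24, 2 higher and 8 lower) and antioxidant genes (9 of 24, all higher). It was smallest for acute phase (2 of 23) and interferon-stimulated genes (4 of 28).

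Further genes outside the lists were called with the block as well and are named after their values were seen. Apoa4, an apolipoprotein of lipid transport, stood at 75.1, 87.5, 57.2 and 220.2 CPM at 2 h, 56.97, 88.8, 43.3 and 137.7 CPM at 4 h, and 45.01, 97.9, 21.5 and 69.9 CPM at 12 h under the WT label. It stood at 34.04, 13.3, 22.03 and 29.996 CPM, 30.9, 28.02, 20.2 and 24.01 CPM, and 32.8, 16.5, 30.01 and 18.3 CPM under the PkmΔDRE label. The labels stood apart at 2 and 4 h and overlapped at 12 h by the third WT-labelled library. Its log2 fold change was −1.65 (SE 0.25, adjusted p = 0.00141). Slc25a30, a mitochondrial carrier, at −1.34 and Acmsd, an enzyme of tryptophan breakdown, at −1.19 were lower too.

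Agxt, which detoxifies glyoxylate in peroxisomes, was higher under the PkmΔDRE label. It stood at 222.3, 213.3, 295.0 and 391.7 CPM at 2 h, 161.5, 220.0, 197.3 and 150.2 CPM at 4 h, and 46.6, 83.7, 44.5 and 41.1 CPM at 12 h under the WT label. It stood at 648.7, 248.1, 422.7 and 672.0 CPM, 589.5, 321.8, 311.9 and 393.9 CPM, and 193.6, 94.6, 184.7 and 131.8 CPM under the PkmΔDRE label. The labels stood apart at 4 and 12 h, and the second PkmΔDRE-labelled library of 2 h lay within the WT range. The log2 fold change was 1.19 (SE 0.18, adjusted p = 0.00141).

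Hour by hour, the difference between the labels was called in 0 of 14107 genes at 2 h (0.0%), in 1 at 4 h (0.00709%) and in 91 at 12 h (0.645%), in 1 fit of the 24 libraries. When the 8 libraries of an hour were fitted alone in edgeR, 0 genes were called at any of the 3 hours, with 1184 at an unadjusted p under 0.05 at 12 h, so each of the 12 h calls described below is lost in that fit. At 2 h 355 genes had an unadjusted p under 0.05 in edgeR, and DESeq2 called 6. The gene called at 4 h was the ribosomal pseudogene Rps6-ps4, at a log2 fold change of 2.77 (edgeR adjusted p = 0.00686). It was also called over the 3 hours, at 1.96 (edgeR adjusted p = 0.000360), and with the block (limma adjusted p = 0.0421). Read pairs of other ribosomal copies may be assigned to it, which was not tested. A change of the difference with the hour was called in 1 gene, Fhl2 (0.00709% of 14107, adjusted p = 0.0195). Of the 91 genes of 12 h, 22 were also called over the 3 hours and 69 were not, and 40 were higher and 51 lower under the PkmΔDRE label.

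Fhl2, a LIM-domain cofactor of actin-dependent transcription, fell under the PkmΔDRE label at 12 h only. It stood at 17.7, 30.02, 12.1 and 5.95 CPM under the WT label at 12 h against 0.544, 1.85, 0.133 and 0.941 CPM, with no overlap. At 2 and 4 h its log2 fold change was 0.00 each (SE 0.46 each), and at 12 h it was −4.21 (SE 0.53, adjusted p = 0.000384). At 12 h of vehicle the same gap was there, at 14.6, 27.6, 12.8 and 7.03 CPM against 1.07, 2.41, 1.45 and 1.48 CPM. The call of the hours was lost in 13 of the 24 fits that left out a library.

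Hmox1, heme oxygenase 1, an antioxidant gene driven by NRF2, went the other way. At 12 h it stood at 118.8, 216.8, 189.4 and 258.5 CPM under the WT label and at 3365, 367.5, 3374 and 1574 CPM under the PkmΔDRE label. The second PkmΔDRE-labelled library of 12 h lay nearest to WT here, as it did for Srxn1 and Igfbp1. At 2 and 4 h the labels overlapped, with log2 fold changes of −0.05 and 0.20, and at 12 h the value was 3.47 (SE 0.49, adjusted p = 0.000869). At 12 h of vehicle Hmox1 stood at 2136, 271, 1927 and 1456 CPM under the PkmΔDRE label, again above the WT-labelled libraries except that the second lay among them. At 8 h of TCDD the order was not the same: the PkmΔDRE-labelled libraries held 208.7, 251.9, 128.7 and 131.99 CPM and the WT-labelled ones 377.9, 258.8, 235.4 and 115.4 CPM.

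Some of the genes called at 12 h are named here after their values were seen, and no theme was tested. Among the 51 lower under the PkmΔDRE label were the matrix protein Ccn1 at −2.05 (adjusted p = 0.00310), the immediate early gene Egr1 at −1.93, the growth factor Hbegf at −1.90, the skeletal muscle actin Acta1 at −4.28, the actin-binding Flna at −1.31 and Cdh1, E-cadherin, at −1.42. Ccn1 stood at 311.5, 393.0, 299.1 and 110.9 CPM against 49.5, 94.9, 54.5 and 69.8 CPM, and the labels did not overlap. Of the 34 genes of the cytoskeleton list 2 were called at 12 h (against 0.645% of all genes) and 29 were lower, with a median of −0.71, against a median of 0.03 over all genes. At 8 h of TCDD Ccn1 stood at 49.2, 64.2, 71.6 and 103.8 CPM under the WT label and 176.5, 130.1, 153.8 and 146.2 CPM under the PkmΔDRE label, so there the order of the labels was turned round. Sox9, a cholangiocyte marker that injured hepatocytes also express, was lower at 12 h, at −2.37 (adjusted p = 0.0243), with 49.7, 58.4, 65.4 and 16.5 CPM against 4.90, 14.7, 5.59 and 11.2 CPM. The means of Sox9 at 12 h of vehicle were 45.6 CPM under the WT label and 11.6 CPM under the PkmΔDRE label. The part of cholangiocytes in the Sox9 difference was not tested.

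Among the 40 genes higher at 12 h were Srxn1 and Igfbp1. Srxn1, sulfiredoxin, an antioxidant enzyme, stood at 1427, 1543, 1225 and 1568 CPM under the WT label and 5225, 1942, 5022 and 3147 CPM under the PkmΔDRE label, a log2 fold change of 1.42 (adjusted p = 0.0204). Igfbp1, a secreted binder of insulin-like growth factors that fasting and stress raise in liver, stood at 44.4, 64.95, 65.8 and 30.6 CPM against 291.7, 102.3, 292.4 and 181.2 CPM, a log2 fold change of 2.07 (adjusted p = 0.0221). In both the labels did not overlap and the second PkmΔDRE-labelled library was the lowest of its group. At 12 h of vehicle the means were 1071 and 2550 CPM for Srxn1 and 64.3 and 226.9 CPM for Igfbp1 under the WT and PkmΔDRE labels. The GC tilt of the libraries, the mean log2 difference in level between the genes of highest and of lowest GC content relative to all libraries, was 0.98, −0.99, 0.97 and −0.22 under the PkmΔDRE label at 12 h and 0.04, 0.97, −0.69 and −0.43 under the WT label. The second and the fourth PkmΔDRE-labelled library, which held less Hmox1, Srxn1 and Igfbp1 than the other two, thus had the lower tilt, and the part of the tilt in these differences was not tested at 12 h. Of the 23 genes of the unfolded protein and integrated stress response list 3 were called at 12 h (against 0.645% of all genes), each higher: Chac1, which breaks down glutathione, at 2.25, Psat1, of serine synthesis, at 1.38 and Mthfd2, of mitochondrial folate metabolism, at 1.10. The labels overlapped for Psat1 and Mthfd2 by the second PkmΔDRE-labelled library, and Chac1, Psat1 and Mthfd2 were called in 12, 13 and 12 of the 24 fits that left out a library. In that list 21 of 23 genes were higher at 12 h, with a median of 0.65. Of the 24 antioxidant genes 2 were called, Hmox1 and Srxn1, and 20 were higher, with a median of 0.57. Cebpa, a transcription factor of mature hepatocytes, was higher at 1.63 and the clock repressor Cry2 at 1.26. At 12 h of vehicle the means of Chac1, Psat1, Mthfd2, Cebpa and Cry2 were higher under the PkmΔDRE label too. The 12 h count rested on single libraries: it was 8 without the first PkmΔDRE-labelled library of 12 h, 645 without the second and 13 without the third. The first and the third were the pair most alike by the median chi-square of their counts.

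**Figure D4:**
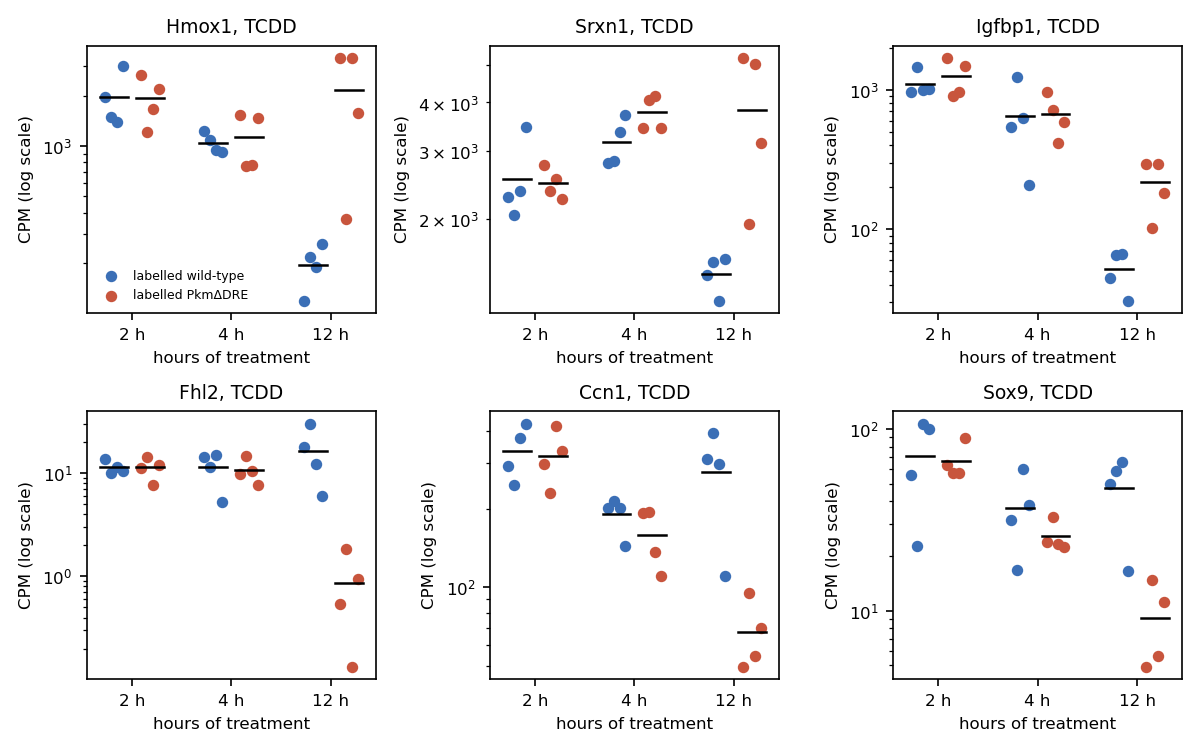
Hmox1, Srxn1, Igfbp1, Fhl2, Ccn1 and Sox9 in the 24 libraries, in CPM on a log scale by hour of TCDD, with libraries labelled wild-type in blue, those labelled PkmΔDRE in red and a black bar at the mean of 4. The colours overlap at 2 and 4 h and separate at 12 h, upward for the top row and downward for the bottom row.

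The same contrast was made without TCDD. In the 24 vehicle libraries 5 of 13398 genes (0.0373%) were called between the labels, all lower under the PkmΔDRE label: Inhbb at −0.85, Tomm7 at −0.76, Tes at −0.72, Myh9 at −0.65 and Timm13 at −0.63. Leaving out library 80 raised the count to 77, and RLE scaling left 0. Every gene called under TCDD was tested there, and all but 4 had the same direction (97.1%, against 57.9% of the 13005 genes tested in both). Of those with the same direction 76 had an unadjusted p under 0.05, against 12.8% of all genes tested under vehicle. The adjusted threshold was passed by 2. The median ratio of the vehicle to the TCDD log2 fold change was 0.602. These genes were chosen by their difference under TCDD, which alone can make the ratio small, so no weaker label effect under vehicle is read from it. Without library 80 all but 3 had the same direction (97.8%, against 62.3% of 13071 genes), 99 of them with an unadjusted p under 0.05, 28 were called, and the median ratio was 0.611. The labels do not say whether vehicle and TCDD libraries came from the same animals. Under both treatments the third WT-labelled library had the lowest summed Mup level of its group at 2, 4 and 12 h. The part of shared animals in the common direction was not tested. A difference between the label effect under TCDD and that under vehicle was called in 0 of 14467 genes in edgeR (0.0%) and in 0 in DESeq2, while 873 had an unadjusted p under 0.05, and the smallest adjusted p was 0.762.

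**Figure D5:**
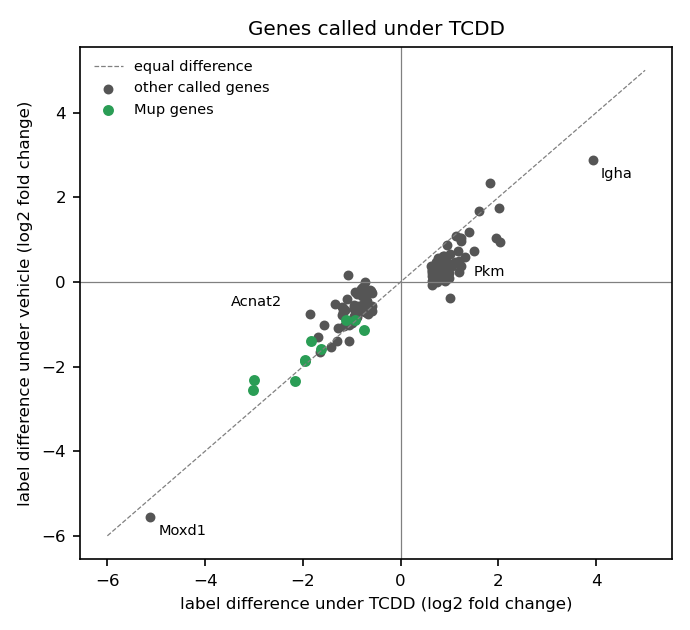
Log2 fold change of the PkmΔDRE over the wild-type label for the 66 higher and 71 lower genes called under TCDD, under TCDD (horizontal) and under vehicle (vertical), with Mup genes in green and a dashed line at equal values. All points but 4 have the same sign on both axes, and those with positive values lie mostly below the dashed line. The genes were chosen by their values on the horizontal axis.

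In the 8 TCDD libraries of 8 h, which the comparison did not use, 0 of 12505 genes (0.0%) were called in edgeR, although 2480 had an unadjusted p under 0.05 and DESeq2 called 315. All but 3 of the called genes were tested there, and of these all but 10 had the same direction (92.5%, against 68.5% of 12359 genes). Of those with the same direction 50 had an unadjusted p under 0.05, against 19.8% of all genes tested at 8 h. The median ratio of log2 fold changes was 0.568, again over genes chosen by their difference in the main comparison. Whether the 8 h libraries shared animals with those of the comparison is not given by the labels, and the part of shared animals was not tested.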

How the data were processed

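The authors deposited 1 table of raw counts per library, with the number of read pairs on each of 55359 genes in total and by strand, following GRCm39. The submitters' processing notes name FastQC 0.11.3, Trimmomatic 0.39, STAR 2.7 and DESeq2. The total count was used, since strand 1 held 50.5% to 50.9% of the stranded counts, so antisense and overlapping genes cannot be told apart. Symbols for 52083 genes came from GENCODE M21, on GRCm38. Lines that name no gene were left out.

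Counts were scaled by TMM in edgeR 4.0.16 (R 4.3.3), kept where filterByExpr passed the gene at its minimum of 10 counts and a total of 15, and tested with the robust quasi-likelihood test, with hour as a covariate and Benjamini-Hochberg adjustment over all genes tested. Called genes changed by 1.5-fold or more with an adjusted p-value under 0.05. Hour-wise differences and their change with the hour came from 1 fit with a coefficient per label and hour. Fold changes are PkmΔDRE over WT label. CPM use TMM library sizes. Libraries were numbered by their titles.

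Genes named were Pkm, called genes whose labels stood apart at all 3 hours, called or study-named members of gene lists, and those with the smallest p for the hours. Others are said to be chosen after their values were seen. The members and lists were chosen with earlier results of these data known. Alternatives were RLE scaling, DESeq2 1.42.0, no filter, no fold change threshold, the order of library numbers as a block (limma 3.58.1) or summed, covariates, a surrogate variable (sva 3.50.0), GC trend removal, adding 8 h and leaving out each library. Leaving out libraries 40 and 44, 80, or all of these, and the GC tilt covariate (the difference in level between the genes of highest and lowest GC content), were chosen after the data were seen, as was GC trend removal for label by treatment. The scripts were tested on simulated data.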

Additional observations from a re-analysis of the deposited data

Results flagged for a closer look

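In a group of 4 libraries a value was marked where its gap to the next library took up most of the group's range. Of 228 groups of 4 tested, 13 (5.70%) were marked, and about 5% are marked by chance alone. Each marked library was the highest of its group. Under the WT label these were Acnat2 at 2 h in library 40 (34.5 CPM, a gap of 0.943 of the range), Noct at 2 h in library 39 (98.3 CPM, 0.869), Igfbp1 at 2 h in library 38 (0.897), Moxd1 at 4 h in library 42 (93.7 CPM, 0.846), Gadd45b at 4 h in library 43 (69.7 CPM, 0.846), Pkm at 12 h in library 50 (76.97 CPM, 0.945), Agxt at 12 h in library 50 (83.7 CPM, 0.871) and the share of read pairs on no gene at 12 h in library 51 (8.83%, 0.919). Under the PkmΔDRE label they were Mup17 (179 CPM, 0.933) and Mup16 (38.5 CPM, 0.867) in the first library of 2 h, and Acnat2 (7.05 CPM, 0.866), Tnfaip3 (27.9 CPM, 0.868) and Sox9 (32.7 CPM, 0.875) in the second library of 4 h.

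The difference between the labels changed with the hour in Fhl2, by the edgeR test of the hour terms (adjusted p = 0.0195), with log2 fold changes of 0.00, 0.00 and −4.21 at 2, 4 and 12 h.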

How the results depend on the processing

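Over the 3 hours, against 66 genes called higher and 71 lower, DESeq2 called 328, no filter on low counts 90, 1 surrogate variable 425, adding the 8 h libraries 229, the replicate block by order of the library numbers 14, and the replicate block by summing 1, with a consensus correlation of 0.171 within the block. The labels give no replicate numbers, so the block only groups libraries by order. Chosen after the data were seen, leaving out libraries 40 and 44 gave 665 (496 higher, 169 lower) and the GC tilt as a covariate 587 (355 higher, 232 lower). GC trend removal gave 176 (74 of them lower), 98 of which were called without it, and no fold change threshold and the covariates for pairs on no gene and unmapped pairs gave 163, 180 and 150. Leaving out 1 library gave 40 to 497, with the fewest without the fourth PkmΔDRE-labelled library of 2 h and the most without library 40. At 2 h DESeq2 called 6 and leaving out a library gave 0 to 2. At 4 h DESeq2 called 27, the hour fitted alone 0, and leaving out a library 0 to 4. At 12 h, against 40 higher and 51 lower, DESeq2 called 174 and 208, no filter 62 and 77, the hour fitted alone 0 and 0, and leaving out a library 2 to 386 and 6 to 259. For the hour terms DESeq2 called 27, no filter 4, and leaving out a library 0 to 10. Under vehicle RLE scaling called 0, DESeq2 178, leaving out library 80 77 (chosen after the data were seen), and leaving out each library in turn 0 to 77. For label by treatment each alternative gave 0, and 48 fits without 1 library gave 0 to 0. At 8 h DESeq2 called 315, no filter 491, and 8 fits without 1 library 0 to 2. The causes were not tested.

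Pkm kept its direction throughout. Its log2 fold change was 1.28 with no filter (adjusted p = 0.0628), 1.21 with the replicate block (0.163) and 1.27 with the hours summed as a replicate block (0.229), none of them called, and 1.15 to 1.47 without 1 library, called in 23 of 24 fits. Of 33 other genes followed through these alternatives, none turned direction: of 1221 pairs of gene and alternative the call held in 1027 and was lost in 194, and 13 of the genes were called with the block. Of 18 genes followed at 12 h, none turned direction, and the call held in 404 of 522 pairs. Depth limits genes near 1 CPM, Igha and Moxd1 included, where intervals would cover counting error only.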
